A study of Mus musculus with 16 samples.

Results

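Imprinted genes are transcribed mainly from 1 parental chromosome, and 39 of them in the mouse were followed here through neurons that carried normal or mutant huntingtin with or without knockdown of Twist1. They were chosen by name as known mouse imprinted genes and not by an expression value, although earlier results of these data were known. A row among the 41388 genes of the deposited files was found for 38 of the 39. The RNA came from primary cortical neurons of Swiss Webster mouse embryos at embryonic day 16. All cultures received 2 lentiviruses on day 5 in vitro, 1 carrying exon 1 of huntingtin (Htt) and 1 carrying a short hairpin RNA (shRNA), and were harvested on day 10. The groups were 25Q with a luciferase control shRNA, 72Q with the same control shRNA, and 72Q with either of the hairpins against Twist1 (shRNA 1 or shRNA 2), where the number before Q is the count of glutamines encoded by exon 1. Each group had n = 4 libraries, 1 for each of the experiment labels exp107, exp108, exp109a and exp109b. No label says whether exp109a and exp109b were separate experiments. No group went without virus, the huntingtin introduced in every culture was an exon 1 fragment, and no source used here names the promoter of the vector.

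An imprinted gene keeps a DNA methylation mark set in the egg or the sperm, and a control region with that mark decides for a whole cluster of neighbours which parental copy is read. Paternally expressed members include the growth factor gene Igf2 and the zinc finger gene Peg3, while H19, Meg3 and, in neurons, the ubiquitin ligase gene Ube3a are read from the maternal copy. Several members are brain genes: loss of the paternal Snrpn, Ndn, Magel2 and Mkrn3 region is the basis of Prader-Willi syndrome, and loss of maternal Ube3a that of Angelman syndrome. The counts do not separate the parental alleles, so every value below is the sum of both.

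Of the 38 rows, 37 were found by gene symbol and Snrpn by coordinates. The row used for Snrpn (ENSMUSG00000000948, chr7:59974149-60140219) holds 100% of the exon bases of Snrpn in the GENCODE annotation, which make up 31.61% of its 6831 bases, so other transcripts of that locus can add to it. Peg13 was not analysed here. Reads per gene passed the filter on low counts for 33 members. The 5 others were Dlk1 and Rtl1, listed at 0 counts in every library, Rian with 2 counts in all, Phlda2 with 18 and Slc22a18 with 82, and they entered no test.

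The starts of Peg3 and Usp29 are shown first, because these paternally expressed neighbours begin side by side and gave different results. RefSeq (GRCm38.p6) places the start of Peg3 at chr7:6730419 on the minus strand and that of Usp29 at chr7:6730583 on the plus strand, 164 bases apart, and their 300-base windows (250 bases before to 50 after each start) share 263 bases. The Peg3 window, chr7:6730370-6730669, is written on its minus strand with its 13 CG dinucleotides in capitals.
Peg3: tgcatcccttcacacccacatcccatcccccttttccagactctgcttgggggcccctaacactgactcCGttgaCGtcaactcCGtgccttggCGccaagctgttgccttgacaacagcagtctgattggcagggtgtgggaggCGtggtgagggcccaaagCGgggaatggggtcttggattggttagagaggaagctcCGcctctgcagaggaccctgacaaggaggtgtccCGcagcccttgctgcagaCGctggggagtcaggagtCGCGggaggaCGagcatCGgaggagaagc
Igf2 is shown because it had the largest fold change of the 33 tested members between 72Q and 25Q. It has 4 such windows, of which these 2 hold the E-box letters CANNTG, the motif that bHLH factors such as Twist1 bind. They lie at chr7:142658755-142659054 and chr7:142666767-142667066 and are written on the minus strand with CANNTG in capitals.
Igf2 window 1: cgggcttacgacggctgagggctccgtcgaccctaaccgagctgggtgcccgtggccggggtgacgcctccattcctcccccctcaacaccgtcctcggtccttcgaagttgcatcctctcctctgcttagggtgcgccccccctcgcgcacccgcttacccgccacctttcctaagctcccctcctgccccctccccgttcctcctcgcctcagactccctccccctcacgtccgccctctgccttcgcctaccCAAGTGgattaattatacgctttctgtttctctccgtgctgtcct
Igf2 window 2: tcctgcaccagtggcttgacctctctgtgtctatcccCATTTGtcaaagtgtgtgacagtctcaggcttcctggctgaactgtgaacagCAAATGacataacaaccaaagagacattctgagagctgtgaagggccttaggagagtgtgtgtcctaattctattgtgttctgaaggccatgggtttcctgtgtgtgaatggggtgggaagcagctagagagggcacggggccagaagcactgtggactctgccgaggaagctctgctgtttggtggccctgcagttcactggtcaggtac
RefSeq windows were found for 29 of the 39 members, 45 windows in all. Searched on both strands (CANNTG reads the same on each), CANNTG occurred in 26 of these (57.8%), belonging to 19 members, against 72.3% of all 32817 windows. CATCTG occurred in 5 (11.1%, against 17.2% of all windows), and CATATG in none (against 3.9%); both are among the sequences that CANNTG covers. The median member window held 13 CG dinucleotides, against 7 over all windows. A match is a description of these letters and not a binding site.

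Library totals ran from 15814525 to 19533034 counts, and 15103 genes were tested. Twist1 followed its labels, with 0.271 ± 0.225 CPM (read counts scaled to library size, SD, n = 4) in 25Q, 4.15 ± 0.763 in 72Q control, 1.57 ± 0.452 with shRNA 1 and 1.64 ± 0.403 with shRNA 2. The summed level of 7 neuron markers was 8530 to 9740 CPM per library in 25Q and 5580 to 6710 CPM in 72Q control, and all 7 fell in 72Q. Astrocyte and oligodendrocyte-lineage markers were also present, at 1580 to 1990 and 1010 to 1110 CPM in 25Q and 1730 to 2190 and 1030 to 1150 CPM in 72Q control, where 4 of 6 astrocyte markers rose. Markers of dividing progenitors summed to 133 to 181 CPM in 25Q and 160 to 206 CPM in 72Q control, where 4 of 6 rose. In bulk RNA, fewer cells of a type and less RNA per cell cannot be told apart. No label says that libraries came from separate cultures, and the p-values rest on the spread among these libraries, which may be technical. The words rose and fell are used where the Benjamini-Hochberg adjusted p over all genes, from the quasi-likelihood test of edgeR, was under 0.05. Log2 fold changes are given ± SE, and CPM values are scaled by TMM factors. The fold changes are made smaller by a prior count of 2, while each SE belongs to the fold change without it. At low counts the value and its SE therefore do not match the p-value.

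Per kilobase of transcript, the members covered a very wide range. On the deposited RPKM scale (CPM per kilobase of gene length), 3 members exceeded 100 RPKM in 25Q neurons, namely Nnat at 540 RPKM, Ndn at 205 RPKM and Snrpn at 112 RPKM. Nnat encodes neuronatin, a small membrane proteolipid of the developing brain, Ndn encodes necdin, a MAGE family protein of postmitotic neurons, and Snrpn a neuronal splicing protein. Another 10 members lay between 10 and 100 RPKM, led by Ube3a at 30.6 RPKM, 11 between 1 and 10 RPKM, and 14 below 1 RPKM. Nnat, Ndn and Snrpn were the 3 highest in every group, while places further down shifted, as the plot of levels per kilobase shows. Kcnk9 went from 22.5 RPKM in 25Q to 8.65 RPKM in 72Q control, Peg3 from 24.6 RPKM in 25Q to 61.8 RPKM with shRNA 1, and Grb10 from 5.53 RPKM in 25Q to 14.7 RPKM with shRNA 2. Deposited RPKM rests on library totals without TMM factors, so its changes between groups differ from those in scaled CPM. From 25Q to 72Q control, Ndn went from 205 to 212 RPKM but from 368 to 346 scaled CPM.

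**Figure D1:**
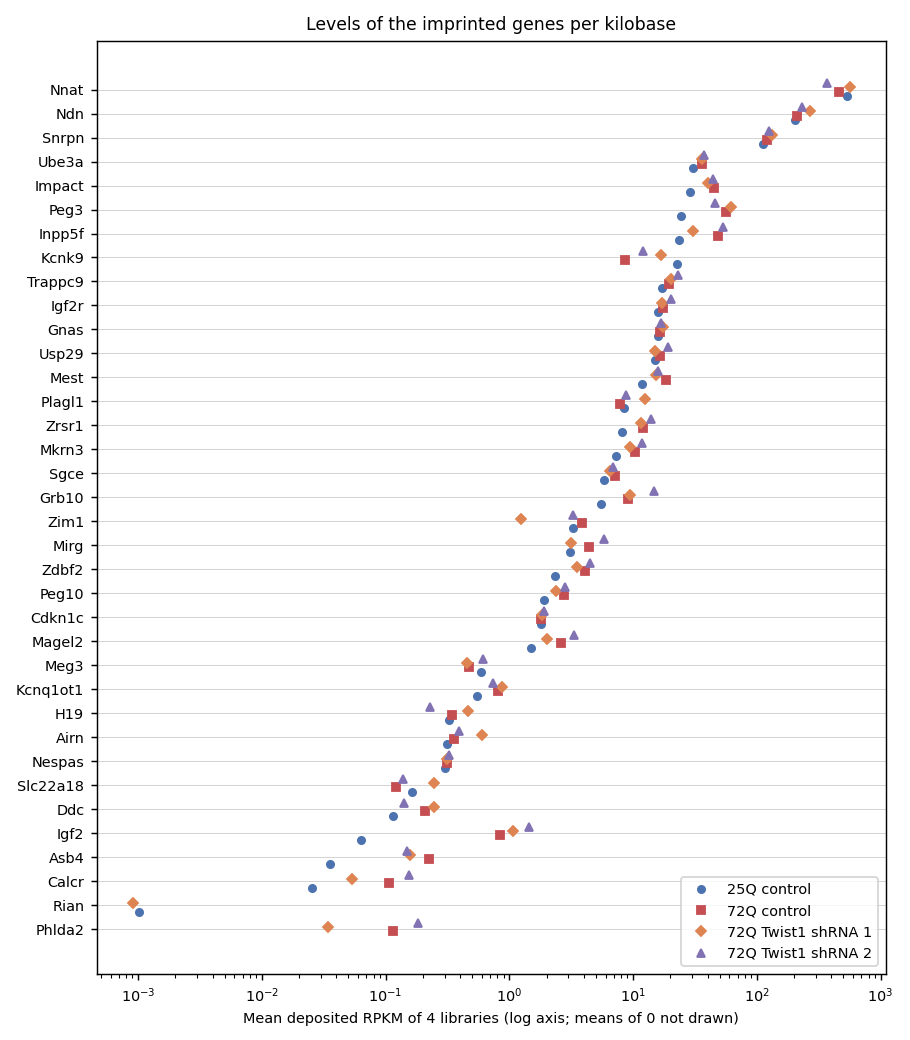
Mean deposited RPKM (x axis, log scale) of each member with any count, for the 4 groups (one symbol per group, mean of 4 libraries). Nnat, Ndn and Snrpn lie above 100 RPKM in all 4 groups, and Igf2 moves from 0.0635 RPKM in 25Q to 0.844 RPKM in 72Q control.

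The first comparison asked how mutant exon 1 changed these genes. Between 72Q and 25Q with control shRNA, 20 of the 33 tested members changed (60.6%), against 57.1% of all genes tested, so the count of changed members was near the background. Of these, 17 rose and 3 fell, against 29.3% of all genes that rose and 27.8% that fell. The median log2 fold change was 0.14 for the members and 0.03 for all genes. A change of at least 1 on the log2 scale was reached by 5 members (15.2%, against 7.87% of all genes): Igf2, Asb4, Calcr and Peg3 rose and Kcnk9 fell. The 72Q and 25Q libraries did not overlap for 14 members, against 38.3% of all genes. Under all alternative settings and with each library left out, 14 of the 20 calls held, and those of Calcr, Ddc, Meg3, Mest, Mirg and Ube3a were lost at least once.

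Neither allele class stood wholly on one side. Of 18 tested paternally expressed members, 10 rose and 1 (Nnat) fell, with a median of 0.38. Of 10 tested maternally expressed members, 4 rose (Mirg, Ube3a, Asb4 and Calcr) and 2 fell (Meg3 and Kcnk9), with a median of 0.07. The difference between the classes was not tested.

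Igf2 (ENSMUSG00000048583, chr7:142650766-142666816), the growth factor gene, measured 0.463, 0.367, 0.307 and 0.445 CPM in the 25Q libraries of exp107, exp108, exp109a and exp109b. The 72Q control libraries, in the same order, measured 4.08, 6.01, 2.66 and 6.25 CPM. All 72Q libraries were above all 25Q libraries, and the log2 fold change was 3.24 ± 0.22 (adjusted p = 4.1e-14). The 25Q level rested on 26 counts in all, against 338 in 72Q, a ratio of 12.1 after scaling (95% exact interval 8.11 to 18.8, counting error only). Igf2os, an antisense transcript that shares 98 exon bases (1.71%) with Igf2, rose too, from 7 to 96 counts and by 2.73 ± 0.43 on the log2 scale (adjusted p = 2.1e-08). No source used here says whether counting used strand, and reads of this pair may be mixed.

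H19, the maternally expressed noncoding RNA next to Igf2, held 0.839 ± 0.311 CPM in 25Q libraries against 0.811 ± 0.332 CPM in 72Q, with a log2 fold change of -0.03 ± 0.29 (adjusted p = 0.929). In the brain Igf2 is made mainly by meninges, vessels and choroid plexus, and markers of those cells were read beside it. The summed level of 10 meningeal and mural markers was 21.3 to 37.7 CPM in 25Q and 11.8 to 25.4 CPM in 72Q control. Of the 6 that were tested, Col1a1, Dcn, Postn and Rgs5 fell in 72Q and Foxc1 rose, and none of the 10 was at 0 in either group. The 4 choroid plexus markers summed to 1.41 to 2.15 CPM in 25Q and 1.34 to 2.54 CPM in 72Q control, and 2 could be tested, with neither called. The 6 endothelial markers summed to 2.26 to 2.49 CPM in 25Q, where Cldn5 was at 0, and to 2.26 to 2.51 CPM in 72Q control. The part of these cells in the Igf2 result was not tested.

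Peg3 (ENSMUSG00000002265, chr7:6703892-6730421), whose zinc finger protein acts in growth and maternal behaviour, measured 345, 318, 386 and 377 CPM in 25Q. In 72Q control it measured 743, 714, 772 and 755 CPM. The ranges did not overlap, and the log2 fold change was 1.07 ± 0.05 (adjusted p = 9.0e-17). Usp29, a ubiquitin protease gene that begins beside Peg3, had 42.6 ± 4.20 CPM in 25Q and 42.4 ± 5.77 CPM in 72Q (log2 fold change -0.01 ± 0.06, adjusted p = 0.939). The deposited Usp29 row covers only the single exon at chr7:6961160-6963769, away from that start, so transcripts that end before it are not counted. Zim1, a maternally expressed zinc finger gene of the same cluster, had 13.0 ± 2.19 CPM and 14.1 ± 5.20 CPM, and was not called (0.08 ± 0.11).

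Kcnk9 (ENSMUSG00000036760, chr15:72512119-72546279), a potassium leak channel gene read from the maternal copy in brain, measured 27.7, 28.1, 34.0 and 28.6 CPM in 25Q. In 72Q control it measured 10.7, 7.47, 13.5 and 9.81 CPM. Every 72Q library lay below every 25Q library, with a log2 fold change of -1.51 ± 0.08 (adjusted p = 3.3e-15). Its neighbour Trappc9, a vesicle trafficking gene, had 118 ± 11.0 CPM and 123 ± 12.0 CPM and was not called (0.06 ± 0.05). Kcnk9 was read beside the neuron markers, all of which fell, by 0.19 to 1.05 on the log2 scale, less than Kcnk9, and their part in this result was not tested.

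Asb4, a maternally expressed gene for an ankyrin-repeat protein of the ubiquitin system, measured 0.116, 0.245, 0.184 and 0.0635 CPM in 25Q. In 72Q control it measured 1.10, 0.700, 0.678 and 1.03 CPM. The groups did not overlap (log2 fold change 1.89 ± 0.44, adjusted p = 1.5e-05), although only 10 counts in all stood behind the 25Q level, for a ratio of 5.77 (2.93 to 12.6). Calcr, the calcitonin receptor gene, was lower still. It measured 0.0579, 0, 0.184 and 0.191 CPM in 25Q and 0.183, 0.642, 0.509 and 0.310 CPM in 72Q, ranges that overlapped slightly. Its log2 fold change was 1.24 ± 0.60 (adjusted p = 0.007), from 7 against 29 counts, and the call was lost without the exp108 library of 25Q (0.85). Both genes belong to the cluster of Peg10, a retrotransposon-derived gene that rose by 0.40 ± 0.08, and Sgce, the epsilon-sarcoglycan gene, which was not called (0.14 ± 0.07).

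**Figure D2:**
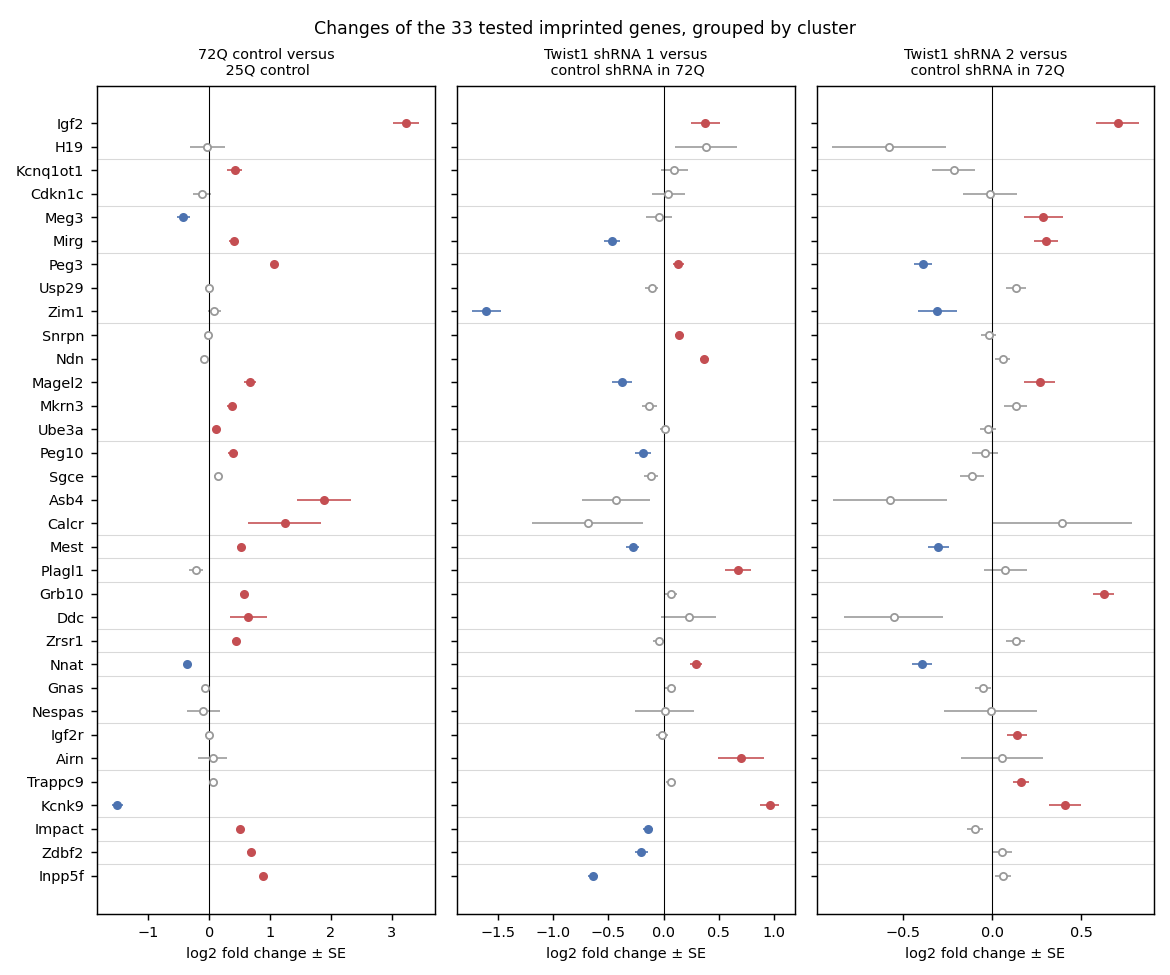
Log2 fold change ± SE (x axis, a separate scale in each panel) of the 33 tested members, grouped by cluster, for 72Q against 25Q and for each Twist1 shRNA against control shRNA in 72Q. Red points rose, blue points fell and open grey points were not called; Igf2 stands apart in 72Q at 3.24, and Zim1 with shRNA 1 at -1.61.

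In the Prader-Willi and Angelman region, the abundant Snrpn and Ndn rows were not called, at 831 ± 115 and 817 ± 100 CPM for Snrpn and 368 ± 51.0 and 346 ± 47.2 CPM for Ndn in 25Q and 72Q. Magel2, whose MAGE protein works with a ubiquitin ligase in protein recycling, rose from 7.58 ± 0.508 to 12.1 ± 1.20 CPM (0.67 ± 0.10, adjusted p = 6.1e-07). Mkrn3, a ring finger gene that restrains puberty, rose by 0.37 ± 0.07. Ube3a rose by 0.11 ± 0.05 (adjusted p = 0.046), and the call was lost without any 1 of the exp107, exp108 or exp109a libraries of 25Q or the exp107 or exp108 libraries of 72Q (0.07 to 0.11).

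Outside these clusters, Inpp5f, a phosphoinositide phosphatase gene with an imprinted transcript variant, rose by 0.89 ± 0.05, from 214 ± 13.6 to 397 ± 48.6 CPM. Zdbf2 rose by 0.69 ± 0.06, the paternally expressed Mest by 0.52 ± 0.06, and Zrsr1, a splicing factor gene, by 0.44 ± 0.06. Grb10, whose adaptor protein restrains insulin and IGF receptor signalling, rose by 0.57 ± 0.06, and Impact, which encodes a translational regulator, rose by 0.51 ± 0.05. Kcnq1ot1, the noncoding RNA that silences its cluster on the paternal chromosome, rose by 0.42 ± 0.12, while Cdkn1c, the cell cycle inhibitor gene of that cluster, was not called (-0.12 ± 0.15). Ddc, the aromatic amino acid decarboxylase gene beside Grb10, rose by 0.64 ± 0.30 at a mean under 1 CPM. That call was lost without any 1 of the exp107, exp109a or exp109b libraries of 72Q or the exp107 or exp109a libraries of 25Q (0.51 to 0.64).

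Nnat was the most abundant member and fell by 0.36 ± 0.06, from 1070 ± 51.7 to 835 ± 50.5 CPM (adjusted p = 3.8e-06). Gnas, which encodes the stimulatory G protein alpha subunit, and its antisense Nespas were not called (-0.06 ± 0.05 and -0.10 ± 0.27), and nor were the antisense pair Igf2r (-0.01 ± 0.06) and Airn (0.06 ± 0.24) or the zinc finger gene Plagl1 (-0.22 ± 0.12). Igf2r is the receptor that clears IGF2. Nespas shares 988 exon bases (31.43%) with Gnas, and Mest shares 902 (22.92%) with Copg2, which was not called (0.07 ± 0.05). Zrsr1 shares 203 (6.19%) with Commd1, which rose by 0.28 ± 0.10. Each of these pairs lies on opposite strands, so their reads may be mixed.

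The Dlk1-Meg3 cluster on chromosome 12 had an unusual profile of counts. Of the 52 rows from Dlk1 onward between positions 109452823 and 109688125, 50 had 0 counts in all 16 libraries, and only Meg3 (2727 counts) and Rian (2 counts) had any; none of the 19 microRNA rows there had a count. Downstream, between 109695586 and 109749460, the rows changed to mostly non-zero: 4 of 40 were at 0, and 30 of 34 microRNA rows had counts. Mirg, the microRNA host transcript at the end of this stretch, had 8478 counts. Rian, which lies between Meg3 and Mirg and is transcribed in the same direction, is thus listed near 0 between detected neighbours, and the cause was not tested. At 0 counts, a total of up to 0.0106 CPM over all libraries is allowed for Dlk1 and Rtl1, for counting error only.

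Within that cluster, Meg3 measured 5.73, 13.4, 13.2 and 13.5 CPM in 25Q and 5.91, 8.58, 9.44 and 9.70 CPM in 72Q control. The exp107 libraries were the lowest of every group for both Meg3 and Mirg. Apart from them, Meg3 was lower in 72Q control than in 25Q, while Mirg was higher in 72Q control in every experiment. Meg3 fell by 0.43 ± 0.11 (adjusted p = 0.001) and Mirg rose by 0.41 ± 0.07 (adjusted p = 1.8e-05), and neither was called without the experiment term. Meg3 lies within the stretch of rows mostly without counts, and whether its own counts are complete was not tested.

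The next comparisons asked how knockdown of Twist1 changed the members in 72Q neurons. Both shRNAs were set against the same 72Q control libraries, so the values stand side by side and are not independent. With shRNA 1, 16 members changed (48.5%, against 46.3% of all genes), 8 in each direction (against 22.7% of all genes higher and 23.6% lower), with a median of 0.01 against -0.01 for all genes. With shRNA 2, 12 changed (36.4%, against 41.8%), 8 rising (against 20.2% of all genes) and 4 falling (against 21.5%), with a median of 0.05 against 0. Scaled by library totals alone, the split for shRNA 2 was 13 rising and 3 falling. Groups did not overlap for 8 and 4 members, against 29.0% and 22.4% of all genes. A change of at least 1 on the log2 scale was reached by Zim1 alone with shRNA 1, against 2.85% of all genes, and by no member with shRNA 2, against 1.44%. Without the experiment term, 8 and 6 members were called, and 8 of the 16 and 5 of the 12 calls held under all alternatives and with each library left out. Oligodendrocyte-lineage markers moved alongside, summing to 1030 to 1150 CPM in the control, 852 to 933 CPM with shRNA 1 and 740 to 841 CPM with shRNA 2, with 5 and 6 of 6 falling. Neuron markers summed to 6260 to 7000 CPM with shRNA 1, where 3 of 7 rose, and 5580 to 6630 CPM with shRNA 2, where 2 rose and 3 fell. Astrocyte markers summed to 1840 to 2160 CPM with shRNA 1, where 1 of 6 rose, and 1390 to 1960 CPM with shRNA 2, where 4 fell. Markers of dividing progenitors summed to 165 to 193 CPM with shRNA 1, where 3 of 6 fell. With shRNA 2 the progenitor markers summed to 122 to 159 CPM, and 4 fell. Microglia markers, of which 2 of 6 could be tested, summed to 8.42 to 9.69 CPM in the control, 7.01 to 8.92 CPM with shRNA 1, where neither was called, and 12.7 to 13.1 CPM with shRNA 2, where Aif1 rose. The part of these cells in the results was not tested.

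Kcnk9 was the 1 member that fell in 72Q and rose with both shRNAs. With shRNA 1 it measured 22.1, 18.7, 22.5 and 17.7 CPM and with shRNA 2 13.9, 12.5, 16.4 and 12.3 CPM. Its log2 fold changes were 0.96 ± 0.09 (adjusted p = 1.4e-10) and 0.41 ± 0.09 (adjusted p = 4.3e-04), and only with shRNA 1 were all libraries above the control. Both groups remained below 25Q, by 0.55 ± 0.08 and 1.10 ± 0.08. Mest was the 1 member that rose in 72Q and fell with both shRNAs, by 0.28 ± 0.06 and 0.30 ± 0.06, and both of these calls were lost without the experiment term. Over all genes, 9.08% had such a reversal with both shRNAs, against 6.06% of the members. The same 72Q control libraries enter both sides of a reversal with opposite sign, so their deviations alone favour such a pattern.

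Igf2 did not return toward 25Q. It measured 5.00, 6.96, 4.80 and 7.80 CPM with shRNA 1 and 6.45, 7.77, 5.72 and 11.1 CPM with shRNA 2. The libraries overlapped those of the control, but within each experiment Igf2 was higher with either shRNA, by 0.38 ± 0.13 (adjusted p = 0.012) and 0.70 ± 0.12 (adjusted p = 1.4e-05). The shRNA 1 call was lost without the experiment term and without the exp109a control library (0.28). Igf2os rose with shRNA 2 (1.14 ± 0.20) and was not called with shRNA 1 (0.30 ± 0.23). Meningeal and mural markers summed to 16.3 to 30.0 CPM with shRNA 1 and 13.4 to 28.3 CPM with shRNA 2. Of the 6 tested, Col1a1, Rgs5 and Postn rose with both, by 1.94, 1.94 and 1.55 with shRNA 1 and by 1.30, 1.73 and 1.03 with shRNA 2, while Foxc1 fell with shRNA 1 and Pdgfrb with shRNA 2. Endothelial markers summed to 2.49 to 3.17 CPM with shRNA 1 and 3.23 to 3.65 CPM with shRNA 2, where Flt1 rose by 1.22. Choroid plexus markers summed to 1.07 to 1.81 CPM with shRNA 1, where Folr1 fell, and 1.59 to 2.65 CPM with shRNA 2, where Kl rose by 0.59. The part of these cells in the Igf2 values was not tested.

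**Figure D3:**
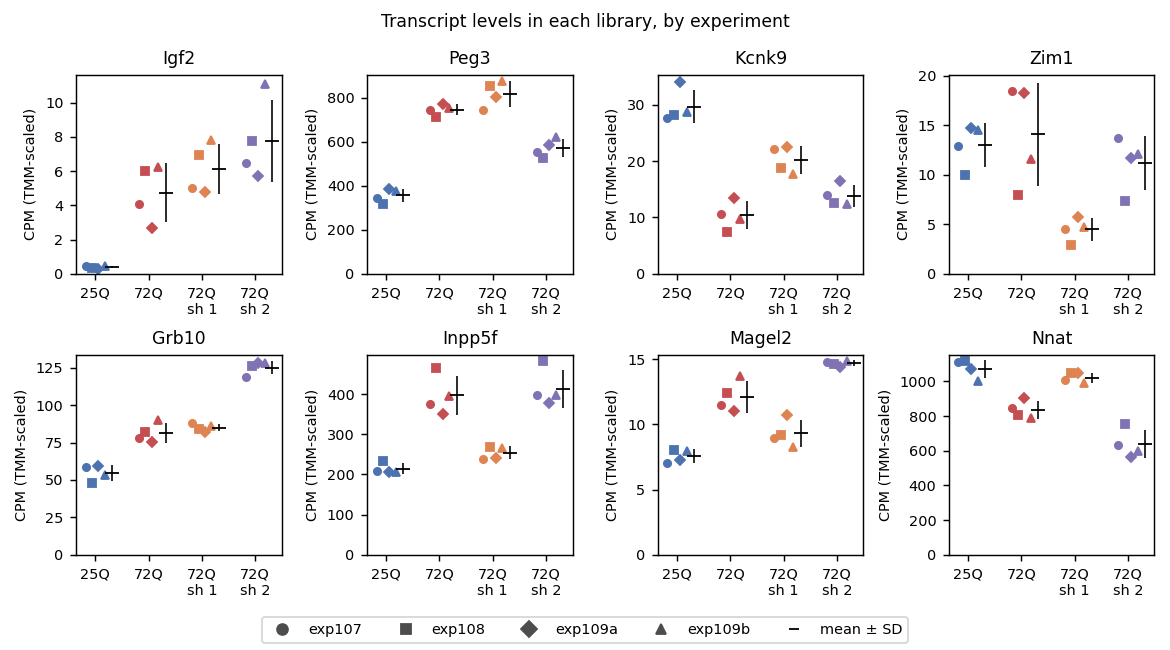
TMM-scaled CPM (y axis, from 0) of 8 members in each of the 16 libraries, with a symbol for each experiment and the group mean ± SD in black (n = 4). Igf2 is at 2.66 CPM or more in every 72Q library, Kcnk9 lies between 7.47 and 34.0 CPM, and Zim1 is lowest with shRNA 1.

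Zim1 had the largest response to shRNA 1 among the members. It measured 18.5, 7.94, 18.3 and 11.6 CPM in 72Q control and 4.53, 2.92, 5.76 and 4.74 CPM with shRNA 1. The ranges did not overlap, and Zim1 fell by 1.61 ± 0.13 (adjusted p = 1.0e-10). With shRNA 2 it measured 13.7, 7.33, 11.7 and 12.1 CPM, within the range of the control or just below it, and its fall of 0.31 ± 0.11 (adjusted p = 0.028) was lost without the experiment term and without any 1 of the exp107 or exp109a control libraries or the exp108 or exp109a libraries of shRNA 2 (-0.19 to -0.31). The difference between the shRNAs was -1.30 ± 0.14 (adjusted p = 6.1e-09). Twist1 itself stood at similar levels with both, as given above.

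The shRNAs moved 4 of the 33 members in opposite directions, Peg3, Nnat, Magel2 and Mirg, as they did 970 of all 15103 genes. Peg3 measured 742, 853, 804 and 874 CPM with shRNA 1 and 554, 527, 584 and 620 CPM with shRNA 2. It fell by 0.39 ± 0.05 with shRNA 2 (adjusted p = 1.6e-07), where no library reached the control range, and its rise of 0.13 ± 0.05 with shRNA 1 (adjusted p = 0.026) was lost without the experiment term and without any 1 of the exp108 or exp109b libraries of either group (0.07 to 0.13). Nnat rose to 1020 ± 29.5 CPM with shRNA 1 (0.29 ± 0.06) and fell to 637 ± 81.1 CPM with shRNA 2 (-0.39 ± 0.06), and the 2 shRNAs differed by 0.69 ± 0.06 (adjusted p = 4.8e-11). Magel2 fell to 9.31 ± 1.03 CPM with shRNA 1 (-0.38 ± 0.09) and stood at 14.7 ± 0.207 CPM with shRNA 2 (0.27 ± 0.09), the latter call being lost without the exp109a control library (0.21) or the exp107 library of shRNA 2 (0.24). Mirg fell by 0.47 ± 0.07 and rose by 0.30 ± 0.07, with neither call holding without the experiment term.

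**Figure D4:**
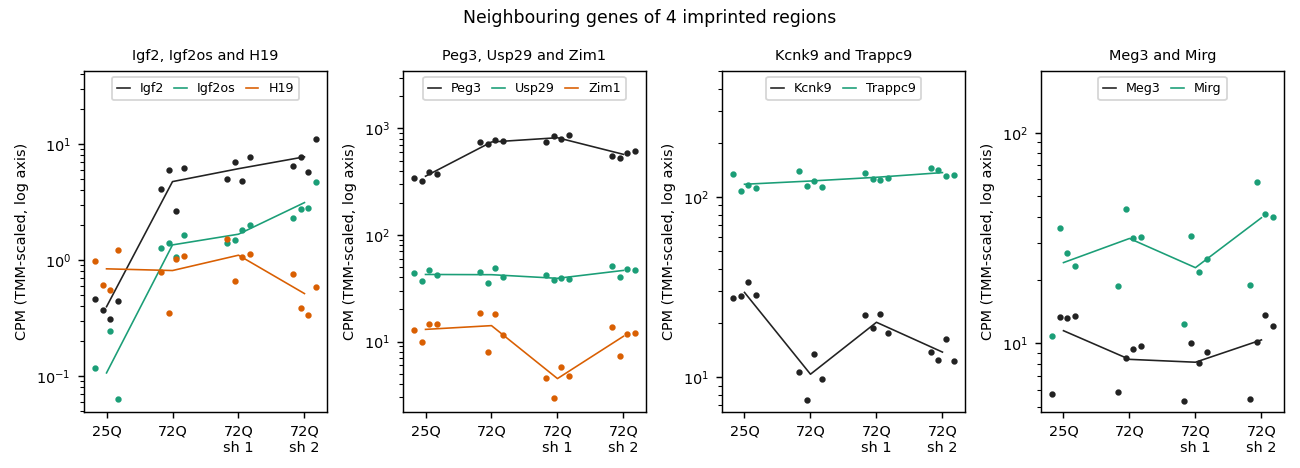
TMM-scaled CPM (y axis, log scale) of neighbouring genes in 4 imprinted regions, with a point for each library (zeros not drawn) and lines through the group means. Igf2 and Igf2os are higher in all 72Q groups than in 25Q. H19 lies between 0.333 and 1.53 CPM and Usp29 between 35.4 and 50.9 CPM. Neither was called in 72Q against 25Q or with either shRNA against control. With shRNA 1 against shRNA 2, H19 was higher (0.96 on the log2 scale) and Usp29 lower (-0.24).

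Other members responded to 1 shRNA. Inpp5f fell with shRNA 1 to 254 ± 15.9 CPM (-0.64 ± 0.05, adjusted p = 1.4e-12) and was not called with shRNA 2 (414 ± 47.0 CPM, 0.06 ± 0.05), and the shRNAs differed by -0.70 ± 0.05 (adjusted p = 1.3e-13). Grb10 was the reverse. It measured 78.0, 82.2, 75.1 and 90.0 CPM in 72Q control, 87.8, 84.0, 82.2 and 86.1 CPM with shRNA 1 (0.06 ± 0.06, not called) and 119, 126, 128 and 128 CPM with shRNA 2, all above the control. This was a rise of 0.63 ± 0.06 (adjusted p = 5.5e-10), and the shRNAs differed by -0.56 ± 0.06 (adjusted p = 2.1e-09). Plagl1 and Airn rose with shRNA 1 by 0.67 ± 0.12 and 0.70 ± 0.21 and were not called with shRNA 2 (0.07 ± 0.12 and 0.05 ± 0.23). Ndn rose with shRNA 1 by 0.37 ± 0.04 (adjusted p = 2.0e-08) and was not called with shRNA 2 (0.06 ± 0.04).

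Set directly against each other, the shRNAs differed for 24 of the 33 members (72.7%, against 53.2% of all genes), with 11 higher with shRNA 1 (against 27.3% of all genes) and 13 lower (against 25.9%). Only Zim1 and Calcr, both lower with shRNA 1, differed by at least 1 on the log2 scale, against 3.88% of all genes. Calcr measured 0.235, 0.358, 0.113 and 0.125 CPM with shRNA 1 and 0.322, 0.711, 0.667 and 0.583 CPM with shRNA 2, ranges that overlapped slightly. Its difference of -1.08 ± 0.46 (adjusted p = 0.009), from 15 against 44 counts, was not called without the exp109a library of shRNA 1 (-0.85). Scaled by library totals alone, the split was 8 and 16. The groups did not overlap for 11 members, against 33.2% of all genes. H19 was called only in this comparison, at 1.10 ± 0.353 CPM with shRNA 1 and 0.513 ± 0.193 CPM with shRNA 2 (0.96 ± 0.30, adjusted p = 0.002). Without the experiment term the count of differing members was 14, and 13 of the 24 calls held under all alternatives and with each library left out.

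Against 25Q, 23 members differed with shRNA 1 (69.7%, against 57.4% of all genes), 20 of them higher (against 28.1%) and 3 lower (against 29.4%). With shRNA 2, 20 differed (60.6%, against 63.3%), 17 of them higher (against 31.4%) and 3 lower (against 31.8%). Under all alternative settings and with each library left out, 16 of the 23 and 15 of the 20 calls held. At least 1 on the log2 scale was reached by 4 and 5 members, against 6.42% and 9.40% of all genes, and the libraries did not overlap for 13 and 14 members, against 40.1% and 43.4%. Igf2 remained 3.62 ± 0.21 and 3.94 ± 0.20 above 25Q on the log2 scale, and Peg3 1.20 ± 0.05 and 0.68 ± 0.05. Asb4, at 0.411, 0.563, 0.508 and 0.998 CPM with shRNA 1 and 0.752, 0.383, 0.381 and 0.690 CPM with shRNA 2, was above 25Q by 1.46 ± 0.48 and 1.31 ± 0.48. With shRNA 2, Grb10 was 1.20 ± 0.06 and Calcr 1.63 ± 0.55 above 25Q, where Grb10 had measured 58.4, 47.9, 59.5 and 53.0 CPM. Zim1 was 1.52 ± 0.14 lower than in 25Q with shRNA 1. In none of the 3 comparisons that involve the 72Q control were H19, Cdkn1c, Usp29, Sgce, Gnas and Nespas called, 6 members or 18.2%, against 20.5% of all genes.

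A list of 48 other imprinted genes was read for context, of which 37 were tested. In 72Q against 25Q, 10 of them rose and 14 fell (64.9%, against 57.1% of all genes), with a median of 0.02. Those past 1 on the log2 scale were Rtl3 (1.65), Klf14 (1.25) and Sfmbt2 (1.23) upward, and Dact2 (-1.83), Slc22a3 (-1.60), Dio3 (-1.38), Dcn (-1.17) and Htr2a (-1.07) among those downward. Rtl3 is an X-linked relative of Rtl1 that the list holds although it is not an established imprinted gene. Dio3, which encodes the thyroid hormone deiodinase and lies beyond Mirg on chromosome 12, rose with both shRNAs (1.01 and 0.74). It had only 258 counts over all libraries, and the same 72Q control libraries enter its fall and both rises. Rtl3 rose further with shRNA 1 (2.06). With shRNA 1, 11 of these genes rose and 10 fell (56.8%, against 46.3% of all genes), and with shRNA 2, 11 rose and 8 fell (51.4%, against 41.8%).

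Of 16 factors listed as setting or maintaining imprints, 14 were tested, and in 72Q 5 rose and 3 fell (57.1%, the same as the 57.1% of all genes). Their log2 fold changes ran from -0.97 to 0.54, with a median of 0.12. Zfp57, the zinc finger protein that guards methylated control regions, fell by 0.97 from 41.5 ± 6.59 to 21.1 ± 3.29 CPM. Dnmt1, the maintenance DNA methyltransferase, fell by 0.57. With shRNA 1 both rose, by 0.49 and 0.40, and Trim28, the corepressor that Zfp57 recruits, fell by 0.34, and with shRNA 2 none of these 3 was called (-0.17, 0.04 and 0.10). Of all 14 tested, 4 rose and 4 fell with shRNA 1 (57.1%, against 46.3% of all genes). With shRNA 2, 2 rose and 1 fell (21.4%, against 41.8%). DNA methylation was not measured in these libraries.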

How the data were processed

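RNA was sequenced from 16 libraries of 4 groups after Ribo-Zero depletion, per the labels. Alignment used STAR 2.0.4b and gene assignment featureCounts 1.45 (Subread), on GRCm38, per the submitters' processing notes. The authors deposited raw counts per Ensembl gene, with CPM and RPKM computed from them: deposited CPM equalled count over library total and deposited RPKM that CPM per kilobase. No source used here gives the strand or multi-mapping settings. Symbols came from GENCODE M21. Counts were tested with edgeR 4.0.16 (filterByExpr, TMM, robust quasi-likelihood, prior count 2) on all 16 libraries, with terms for group and for experiment and Benjamini-Hochberg adjustment over 15103 genes, and the script was tested on simulated data. The block was the experiment label, since libraries of 1 experiment deviated together (correlations across genes 0.223 to 0.612). Groups came from the titles. Alternatives were other scalings, DESeq2 1.42.0, no filter, other blocks, smaller fits and left-out libraries. The members and lists were chosen with earlier results of these data known. All members are named, with values in each library for those called with a log2 fold change of at least 1 in 72Q against 25Q or with either shRNA against control; library values of other members were added after their values were seen.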

Additional observations from a re-analysis of the deposited data

Results flagged for a closer look

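The 132 groups of 4 libraries (33 members in 4 groups) were screened with Dixon's test. In 8, the gap of a library to its nearest neighbour was larger than the 95% limit allows. Chance alone gives about 1 in 20 for independent groups. The screen left out the experiment label, and the groups of a member share experiments, so they are not independent. For each member named below, the flagged experiment was the highest or the lowest in all 4 groups. The flags therefore go with shared differences between experiments and do not mark single outlying libraries. Meg3 was low in the exp107 library of 25Q, at 5.73 CPM against 13.2 to 13.5 in the others. Snrpn was high in exp108 with shRNA 1 (1040 CPM against 834 to 868) and with shRNA 2 (931 against 749 to 771). In the exp108 libraries Sgce was also high with shRNA 2 (21.3 CPM against 19.4 to 19.7), Inpp5f in 25Q (234 against 206 to 209), and Mest was low with shRNA 1 (41.8 against 64.3 to 67.2). Ube3a was high in exp107 of 72Q control (204 CPM against 174 to 177), and Kcnk9 in exp109a of 25Q (34.0 against 27.7 to 28.6).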

How the results depend on the processing

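Without the replicate block by experiment, the members called fell to 8 for shRNA 1 (all genes 4561, from 6999), 6 for shRNA 2 (3621, from 6307) and 14 for shRNA 1 against shRNA 2. With the replicate number of the titles as the block they were 9 for shRNA 1 and 6 for shRNA 2. These numbers match the experiment within the 72Q groups and in 1 of 4 libraries of 25Q. With a library left out, members called ranged from 18 to 20 in 72Q against 25Q, 14 to 16 with shRNA 1, 9 to 12 with shRNA 2, 20 to 23 between the shRNAs, and 19 to 23 and 17 to 20 for the shRNAs against 25Q. All genes called ranged likewise from 7868 to 8429, 6187 to 6638, 5423 to 5806, 7209 to 7533, 7997 to 8321 and 8944 to 9208. Scaling by library totals alone raised the median over all genes in 72Q against 25Q from 0.03 to 0.163, and turned Snrpn (0.112) and Igf2r (0.127) upward there, Gnas upward with shRNA 1 against 25Q (0.127), and Gnas (0.094), Snrpn (0.167) and Ndn (0.179) with shRNA 2 against 25Q. Levels near 26 counts or fewer per group (Igf2, Asb4 and Calcr in 25Q) are limited by depth.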
